A study of Arabidopsis thaliana with 10 samples.

Results

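In leaves of Arabidopsis thaliana, 18 genes were low on the first day of warm dim growth and high again in cool bright growth, both in 35S:PAP1 plants and in plants with an empty vector. The members were chosen by these array values: a probe set naming only 1 gene, with day 2 minus day 1 of -1.5 or less and with days 8 and 12 each at least 1 above day 2, in each line, on the log2 scale. Of 22746 probe sets on the array, 51 met these limits (0.224%). Of these 51, 25 are not listed in the probe table and 5 name several genes. Of those that name 1 gene, 3 were set aside (HTB2, AT1G06000 and COR15A). They are among 7 genes that the rule leaves out by name. This left 18 probe sets of 18 genes among the 13513 probe sets that name 1 gene. The values on days 1, 2, 8 and 12 are therefore a description of how the genes were picked. The rule set no limit on day 7, on the difference between the lines or on the difference between days 8 and 12. It did ask both lines to pass the same limits on days 1, 2, 8 and 12, so comparisons that use these days are not free of the choice.

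The series holds 10 arrays of RNA from pooled leaf tissue of accession Columbia, 1 array per line on days 1, 2, 7, 8 and 12. One line carries PAP1, a regulator of the MYB family that turns on anthocyanin synthesis, behind the constitutive viral 35S promoter, and is labelled Pap. The other is labelled Hex and was read as the empty vector control, the only other line that the series names. The labels give days and no regime: day 1 was read as bright light (440 µmol m-2 s-1) at 22 °C. Days 2 and 7 were read as the 6 dim days (150 µmol m-2 s-1) with 30 °C by day, and days 8 and 12 as bright light again (440 µmol m-2 s-1) at 15 °C. On that reading temperature, light, plant age and day cannot be told apart, and the last regime was cooler than the first. The labels name no separate plants as repeats of a line on a day, and whether each line is 1 transgenic line or several is not given in the sources used here.

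Leaves that move from bright to dim light lower transcripts of light-induced pathways, among them the synthesis of flavonoids, which screen leaf cells from excess light. Warmth and cold act on many of the same transcripts, and defence genes that depend on salicylic acid also vary with light and temperature. The members hold genes of these kinds together with transporters and plastid proteins. The gene table names CHIL, and NPF3.1 as a synonym of AT1G68570. The others carry a locus name alone, and the family roles given for them are general background, not taken from the files.

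Control probe sets set some arrays apart, and the values bear on the members. Actin read at the 5′ end minus the 3′ end, a gauge of RNA integrity, gave -2.5 on the 35S:PAP1 day 2 array and -1.5 to -1.2 on the other 9, and the 25S ribosomal RNA probe set read 9.7 there against 4.7 to 6.7. The part of this array in the choice of members was not tested. Both day 7 arrays read 3.25 for the median of 12 poly-A spike-in probe sets, whereas the remaining arrays read 4.4 to 5.6. The lines also correlated least on day 7 (0.973 over all probe sets, against 0.986 to 0.991 on the other days). Of 18 marker genes listed for leaf and other tissues, 5 had a probe set of their own. RCA, the Rubisco activase gene of photosynthetic leaf cells, read 13.6 to 13.8 on all 10 arrays. The root gene EXPA7 read 3.5 to 3.9 and the seed coat gene BAN 3.3 to 3.7. Changes that reach 3.9 or less were therefore taken as lower bounds, although no floor was established for single probe sets. Another root gene, PYK10, read 4.1 to 5.1, and the stomatal gene FAMA 5.5 to 6.6. In such bulk RNA, fewer cells of a type and less RNA per cell cannot be told apart.

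**Figure D1:**
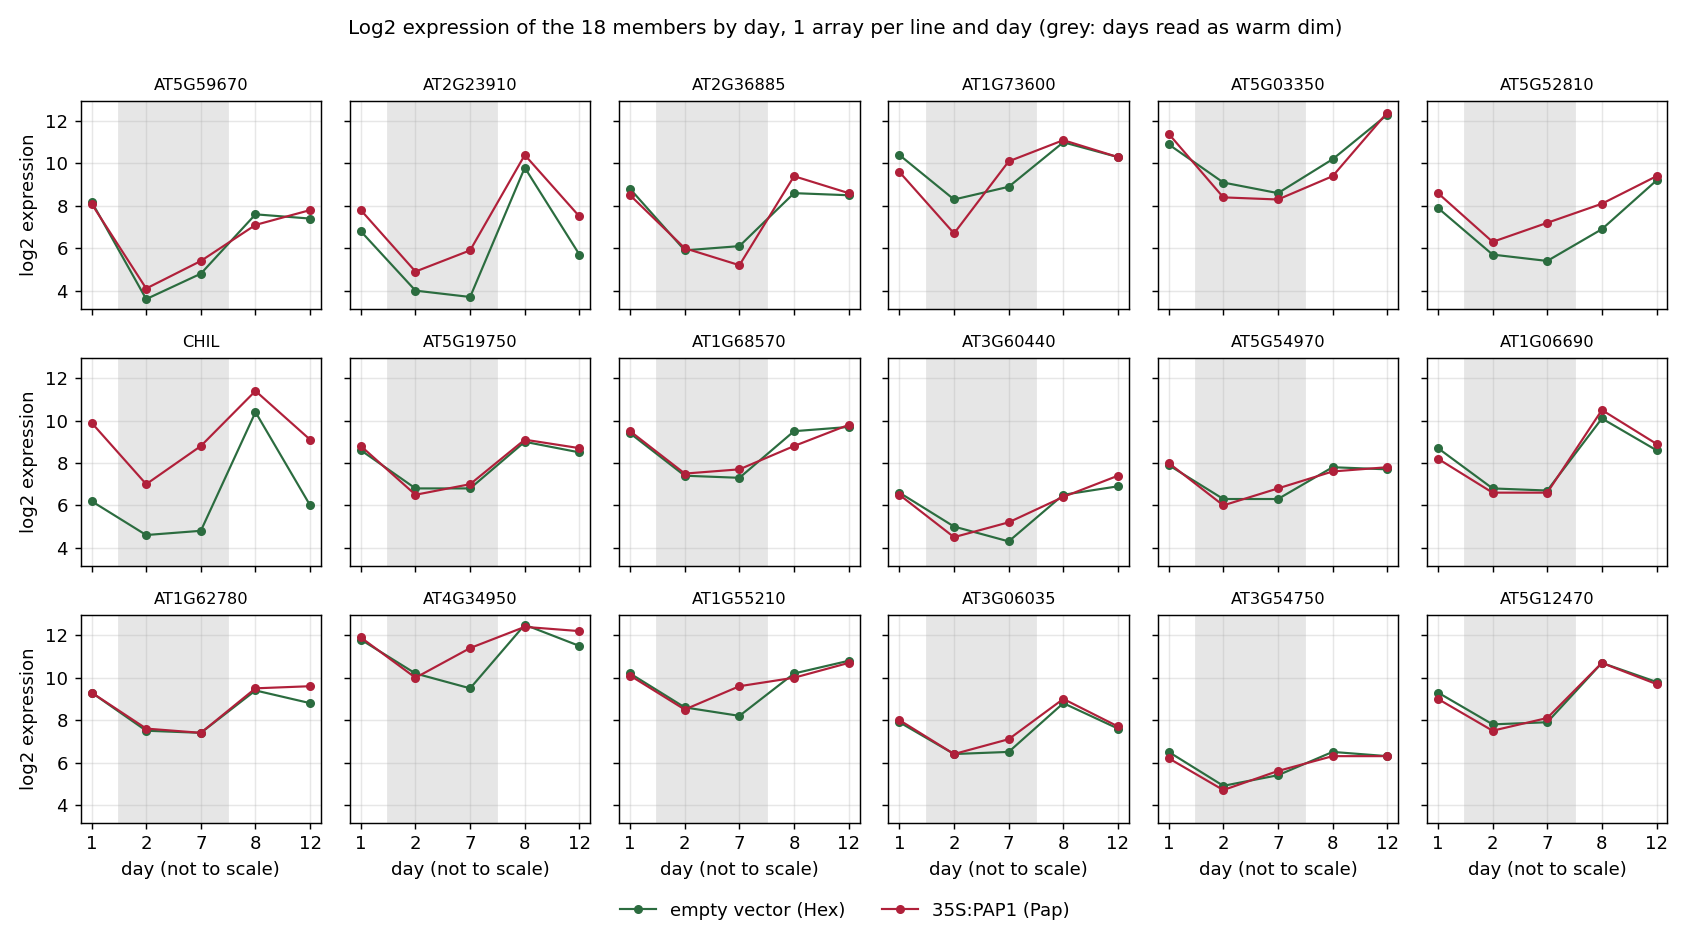
Log2 expression (vertical axis) of each of the 18 genes on the 5 days (horizontal axis, not to scale), with 1 point per array, green for the empty vector and red for 35S:PAP1. All 18 genes dip on day 2 in both lines, as the rule requires, and the lines lie close together except for genes such as CHIL, AT2G23910 and AT5G52810.

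The members were genes of middle to high signal, with means over the 10 arrays of 5.87 to 11.34 and a median of 7.9, against a median of 5.63 over all probe sets. Their median level in the empty vector was 8.65 on day 1, 6.6 on day 2, 6.6 on day 7, 9.45 on day 8 and 8.55 on day 12. The corresponding medians of 35S:PAP1 were 8.7, 6.55, 7.15, 9.4 and 9.0. Thus the median of day 7 stood where day 2 did in the empty vector and somewhat higher in 35S:PAP1. All 18 genes code for proteins, and they lie on all 5 nuclear chromosomes (5, 2, 3, 1 and 7 genes on chromosomes 1 to 5). They were not neighbours: in the order of the reference annotation at least 246 genes lay between any 2 of them. No other probe set on the array names any of these genes alone.

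The largest difference between days 1 and 2 was that of 1 gene, from the group tied to defence and the cell surface. The group did not share it: the mean of the lines was -4.3 for AT5G59670 and -1.6 for AT1G55210. AT5G59670, which codes for a receptor-like kinase, read 8.2, 3.6, 4.8, 7.6 and 7.4 on days 1, 2, 7, 8 and 12 in the empty vector. In 35S:PAP1 it read 8.1, 4.1, 5.4, 7.1 and 7.8. Day 2 was lower than day 1 by at least 4.6 in the empty vector, where it read below 3.9, and by 4.0 in 35S:PAP1. Day 7 stood 1.2 and 1.3 above day 2. AT5G59670 is the only member whose day 7 value was over 1 log2 unit above day 2 in both lines.

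AT5G03350 codes for a legume lectin-like protein that salicylic acid induces. It read 10.9, 9.1, 8.6, 10.2 and 12.3 in the empty vector and 11.4, 8.4, 8.3, 9.4 and 12.4 in 35S:PAP1. Its day 8 level was still below day 1 in both lines, and day 12 was the highest of all days in both. AT5G52810, of a family related to ornithine cyclodeaminase, acts in making pipecolic acid, a signal of plant immunity. It read 7.9, 5.7, 5.4, 6.9 and 9.2 in the empty vector and 8.6, 6.3, 7.2, 8.1 and 9.4 in 35S:PAP1, so it shared the late high with AT5G03350. Day 12 was also the highest day in both lines for AT1G55210, NPF3.1 and AT3G60440, whereas AT5G59670 was highest on day 1. AT1G55210, a dirigent protein gene, a family that guides the coupling of phenolic units, read 10.2, 8.6, 8.2, 10.2 and 10.8 in the empty vector. In 35S:PAP1 it read 10.1, 8.5, 9.6, 10 and 10.7, and the lines stood within 0.2 of each other on every day except day 7.

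Other members peaked on day 8, and the metabolic genes CHIL and AT2G23910 are given first. Day 8 was also the highest day in both lines for AT1G73600, AT1G06690, AT5G12470, AT4G34950, AT5G19750 and AT3G06035. CHIL (AT5G05270), a chalcone isomerase-like protein that aids the early flavonoid pathway, read 6.2, 4.6, 4.8, 10.4 and 6.0 in the empty vector. In 35S:PAP1 it read 9.9, 7.0, 8.8, 11.4 and 9.1, higher on all 5 days. AT2G23910, related to cinnamoyl-CoA reductases, read 6.8, 4.0, 3.7, 9.8 and 5.7 in the empty vector and 7.8, 4.9, 5.9, 10.4 and 7.5 in 35S:PAP1. Both genes peaked on day 8 in both lines, and on day 12 the levels of both were below those of day 1.

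AT1G73600 belongs to the phosphoethanolamine methyltransferases, which make the phosphocholine head group of membrane lipids. It read 10.4, 8.3, 8.9, 11 and 10.3 in the empty vector and 9.6, 6.7, 10.1, 11.1 and 10.3 in 35S:PAP1. Its 35S:PAP1 value of day 7 was above that of day 1, which held for no other member. AT3G60440, of the phosphoglycerate mutase-like family, read 6.6, 5.0, 4.3, 6.5 and 6.9 in the empty vector and 6.5, 4.5, 5.2, 6.4 and 7.4 in 35S:PAP1. Between days 2 and 7 it moved down in the empty vector and up in 35S:PAP1.

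Further members, AT1G06690 and AT5G12470, code for plastid proteins. AT1G06690, of the aldo-keto reductase family, read 8.7, 6.8, 6.7, 10.1 and 8.6 in the empty vector and 8.2, 6.6, 6.6, 10.5 and 8.9 in 35S:PAP1. AT5G12470, of the RETICULATA-related family of the chloroplast envelope, read 9.3, 7.8, 7.9, 10.7 and 9.8 in the empty vector and 9.0, 7.5, 8.1, 10.7 and 9.7 in 35S:PAP1. Neither gene had lines more than 0.5 apart on any day.

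Transporters and another membrane protein were also among the members. NPF3.1 (AT1G68570), of the nitrate and peptide transporter family, read 9.4, 7.4, 7.3, 9.5 and 9.7 in the empty vector and 9.5, 7.5, 7.7, 8.8 and 9.8 in 35S:PAP1. AT4G34950, of the major facilitator superfamily, read 11.8, 10.2, 9.5, 12.5 and 11.5 in the empty vector and 11.9, 10, 11.4, 12.4 and 12.2 in 35S:PAP1. AT5G19750, of a family of small organelle membrane proteins, read 8.6, 6.8, 6.8, 9.0 and 8.5 in the empty vector and 8.8, 6.5, 7.0, 9.1 and 8.7 in 35S:PAP1. AT4G34950 was the member with the highest mean, and the genes differed on day 7, when its lines stood 1.9 apart and those of AT5G19750 0.2 apart.

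For the remaining 5 genes no role is given here. AT2G36885 read 8.8, 5.9, 6.1, 8.6 and 8.5 in the empty vector and 8.5, 6.0, 5.2, 9.4 and 8.6 in 35S:PAP1, and it was the member with the lowest 35S:PAP1 value relative to the empty vector on day 7. AT3G06035 read 7.9, 6.4, 6.5, 8.8 and 7.6 in the empty vector and 8.0, 6.4, 7.1, 9.0 and 7.7 in 35S:PAP1, again with the highest level on day 8. The other 3 were within 0.5 of day 1 on days 8 and 12. AT1G62780 read 9.3, 7.5, 7.4, 9.4 and 8.8 in the empty vector and 9.3, 7.6, 7.4, 9.5 and 9.6 in 35S:PAP1. AT5G54970 read 7.9, 6.3, 6.3, 7.8 and 7.7, and 8.0, 6.0, 6.8, 7.6 and 7.8. AT3G54750 was dimmer, with 6.5, 4.9, 5.4, 6.5 and 6.3 in the empty vector and 6.2, 4.7, 5.6, 6.3 and 6.3 in 35S:PAP1.

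The limits of the rule cut through a run of values. On the inside, AT3G06035, AT3G54750, AT5G03350 and AT5G12470 met 1 of the limits exactly, and 6 more members cleared their closest limit by 0.1, the step of the deposited values. Just outside, 3 single genes missed 1 limit by 0.1. Day 2 minus day 1 for 2A6 was -1.8 in the empty vector but -1.4 in 35S:PAP1, and for AT3G14740 -1.9 and -1.4. For AT3G13560 day 8 minus day 2 was 0.9 in 35S:PAP1, where 1 was required.

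Day 7 asks whether the low levels of day 2 lasted to the end of the warm dim days, and it is the day that took no part in choosing the genes. In the empty vector, day 7 was at least 1 log2 unit below day 1 for all 18 members (5.03% of all probe sets), by 1.1 to 3.4 with a median of -2.0. In 35S:PAP1 it was so for 12 of 18 (3.03% of all probe sets), with differences of -3.3 to 0.5 and a median of -1.35. Day 7 was below days 1, 8 and 12 for 18 of 18 members in the empty vector (24.6% of all probe sets) and for 17 of 18 in 35S:PAP1 (25.9%), AT1G73600 being the exception. Since days 1, 8 and 12 were chosen to be high, all these counts partly restate the choice of members and are not a test.

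From day 2 to day 7 the lines took different courses for several members. In the empty vector 7 members were higher on day 7 than on day 2, 9 were lower and 2 equal, with a median difference of -0.05 and a range of -0.7 to 1.2. In 35S:PAP1 14 were higher, 3 lower and 1 equal, with a median of 0.75 and a range of -0.8 to 3.4. AT1G73600 had the highest difference in 35S:PAP1 (3.4, against 0.6 in the empty vector), then CHIL (1.8 against 0.2) and AT4G34950 (1.4 against -0.7). The 35S:PAP1 day 2 array, the base of these differences, is the one with the actin value of -2.5, and its part in them was not tested. Since day 2 was chosen to be low in both lines, these differences and counts partly restate the choice of members and are not a test. The median difference over all probe sets was 0 in both lines, and the shares of all probe sets that moved up or down are not given here.

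**Figure D2:**
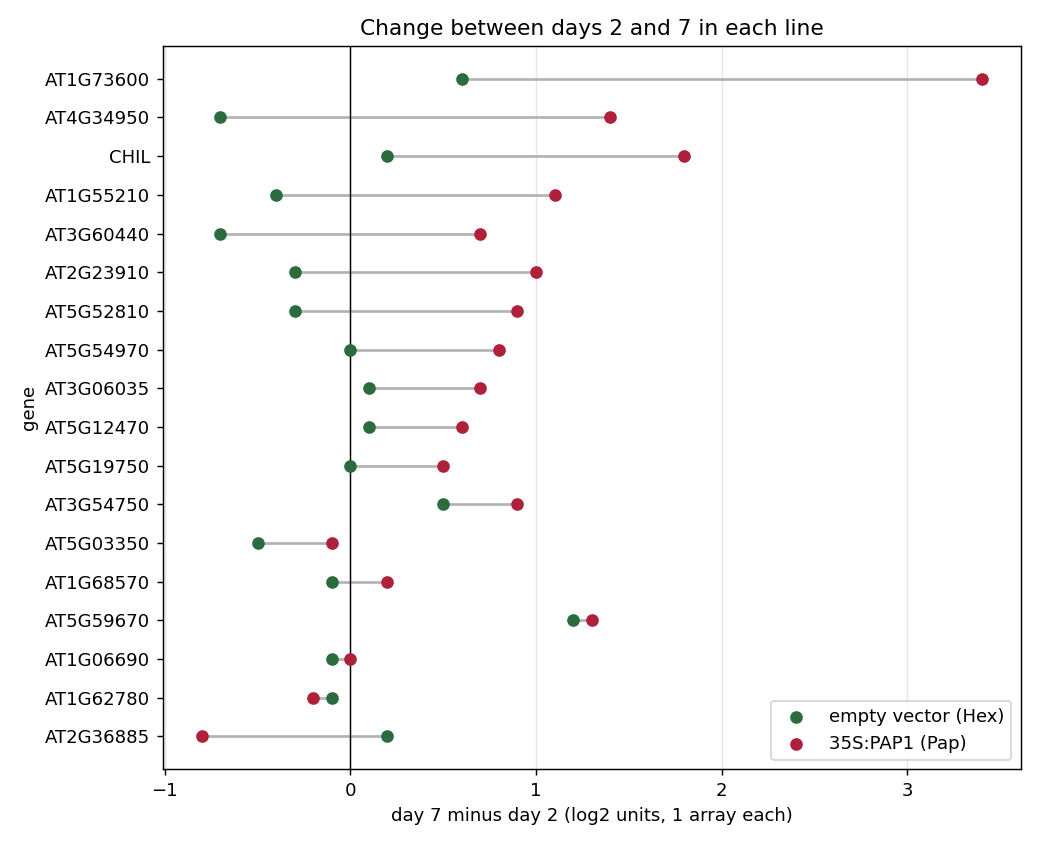
Day 7 minus day 2 in log2 units (horizontal axis) for each gene (vertical axis), green for the empty vector and red for 35S:PAP1, with 1 array per line and day. Most red points lie to the right of their green partner, with a median of 0.75 against -0.05, and AT2G36885 and AT1G62780 lie the other way.

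On day 7 itself the members read higher in 35S:PAP1 than in the empty vector in 14 of 18 cases, lower in 3 and equal in 1. Their median difference was 0.55, against 0 over all probe sets. The difference was at least 1 log2 unit for CHIL (4.0), AT2G23910 (2.2, a lower bound, since the empty vector read 3.7), AT4G34950 (1.9), AT5G52810 (1.8), AT1G55210 (1.4) and AT1G73600 (1.2). These are 6 of 18 members (33.3%), against 2.33% of all probe sets, and 0 of 18 were lower by 1 or more, against 3.83%. Only 1 array of each line stands behind these values, and they use no array that chose the members. The arrays of day 7 are those with the low spike-in values and the lowest correlation between the lines, and the part of this in the difference was not tested. The share of all probe sets that read higher in 35S:PAP1 by any amount is not given here. The shares of all probe sets on this and the other days include dim ones, whereas no member has a mean under 5. Shares among brighter probe sets are not given here.

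On the other days fewer members stood at least 1 higher in 35S:PAP1. On day 1 these were CHIL and AT2G23910 (0.787% of all probe sets), and on day 2 CHIL alone (0.818%). On day 8 they were CHIL and AT5G52810 (0.413%), and on day 12 CHIL and AT2G23910 again (0.510%). The median difference of the members was 0.05 on day 1, -0.15 on day 2, 0.05 on day 8 and 0.15 on day 12. Thus AT4G34950, AT1G55210 and AT1G73600 reached 1 on day 7 and on no other day.

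**Figure D3:**
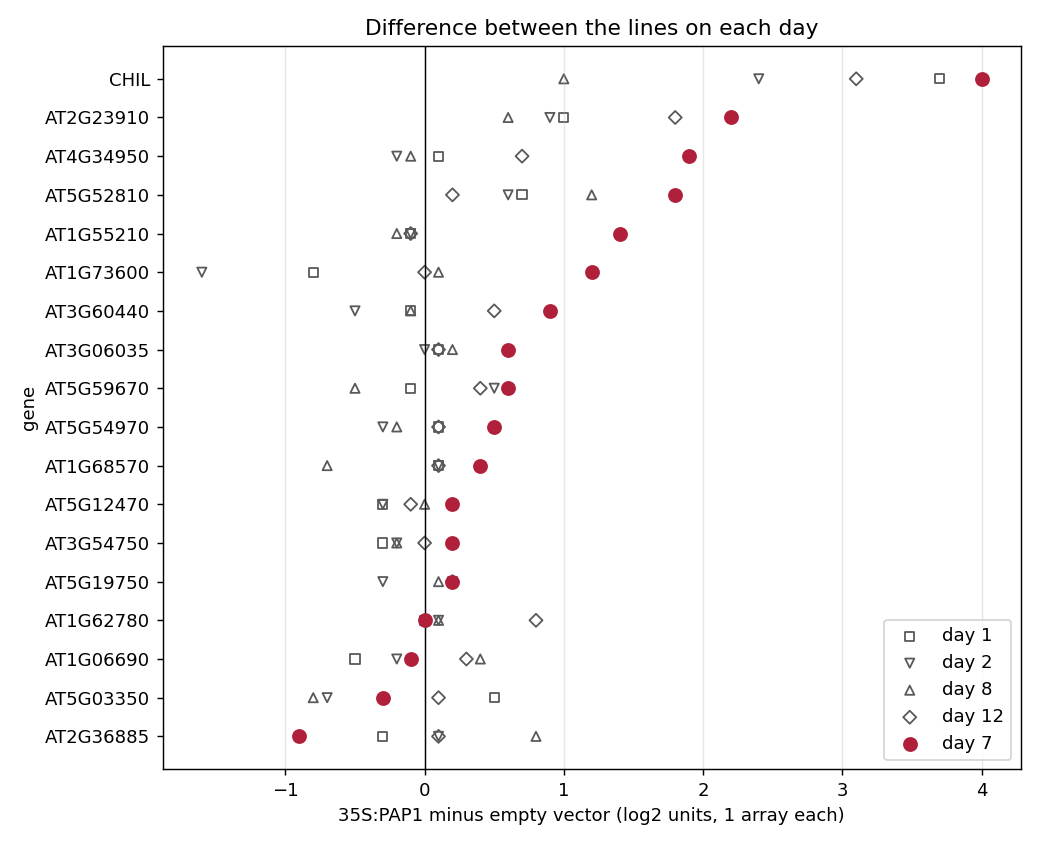
35S:PAP1 minus empty vector in log2 units (horizontal axis) for each gene (vertical axis), with open symbols for days 1, 2, 8 and 12 and filled red circles for day 7. Day 7 is the rightmost point for genes such as AT4G34950 (1.9) and AT1G55210 (1.4), and the leftmost for AT2G36885 (-0.9).

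Whether the line difference of day 7 departed from that of the other 4 days was tested with limma across all probe sets. The largest departures among the members were 1.775 ± 0.36 for AT4G34950 (SE, adjusted p = 0.314), 1.775 ± 0.65 for AT1G73600 (adjusted p = 0.435) and 1.525 ± 0.17 for AT1G55210 (adjusted p = 0.270). AT2G36885 departed the other way, by -1.075 ± 0.40 (adjusted p = 0.440). With 1 day set against 4, limma called 0 of 18 members and 0 of 22746 probe sets (0%), while 8 members and 2373 probe sets (10.4%) had an unadjusted p under 0.05. The members' count was 4 without day 1 or without day 2, 5 without day 8 or with each array centred, and 7 under the other alternatives. The 8 were the 4 named and AT5G52810, AT2G23910, AT3G60440 and AT3G06035, with departures of 1.125, 1.125, 0.95 and 0.5. The departure of the day 7 difference is therefore not established for any member. The other 4 days chose the members, by limits that both lines had to pass. The members' counts at an unadjusted p under 0.05 may partly restate that choice and are not a result about the members.

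The difference between the lines over all 5 days asks whether the 35S:PAP1 background shifted these genes throughout. CHIL, AT2G23910 and AT5G52810 stood above the empty vector on all 5 days. CHIL, a gene of the flavonoid pathway that PAP1 is known to activate in its later steps, was on average 2.84 ± 0.39 higher (SE, 5 days, limma adjusted p = 0.0810). AT2G23910 was 1.3 ± 0.23 higher (adjusted p = 0.186) and AT5G52810 0.9 ± 0.21 higher (adjusted p = 0.408). None passed the threshold of 0.05: limma called 0 of 18 members, against 18 probe sets in all (0.0791%), and these 3 members had an unadjusted p under 0.05, as did 1587 probe sets (6.98%). Of the 3, CHIL alone crossed the threshold with the settings. Its adjusted p was 0.0477 with dim probe sets left out, 0.0290 with an intensity trend and 0.0363 without day 8, and between 0.0290 and 1.0 over all alternatives.

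For the other 15 members the average difference between the lines was small, from -0.24 ± 0.19 for AT5G03350 (adjusted p = 0.799) and -0.22 ± 0.35 for AT1G73600 (adjusted p = 0.895) to 0.48 ± 0.29 for AT4G34950 (adjusted p = 0.759). AT1G73600 combined differences of -0.8 and -1.6 on days 1 and 2 with 1.2 on day 7. NPF3.1 averaged 0 ± 0.15 (adjusted p = 1.0), with 35S:PAP1 0.7 lower on day 8 and 0.1 to 0.4 higher on the other 4 days.

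Within the cool bright days the members parted. Day 12 minus day 8 came from the model with line and day as terms, each day holding 1 array of each line. It differed for 7 of 18 members (38.9%), against 20.2% of all probe sets. Of these, 5 were lower on day 12 (9.44% of all probe sets were called lower) and 2 were higher (10.7% were called higher). No member has a mean under 5, and among the 12841 probe sets with a mean of at least 5 the share called was 33%, with 15% lower and 18% higher. The members' share is near that of probe sets of such signal and is not a result about the members as a group. AT2G23910 fell by 3.5 ± 0.36 log2 units (SE, 11.3-fold, adjusted p = 0.00111) and CHIL fell by 3.35 ± 0.62 (10.2-fold, adjusted p = 0.00898), each in both lines. The plastid genes AT1G06690 and AT5G12470 fell by 1.55 ± 0.22 (adjusted p = 0.00329) and 0.95 ± 0.16 (adjusted p = 0.00600), and AT3G06035 fell by 1.25 ± 0.17 (adjusted p = 0.00260).

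The 2 members called higher on day 12 than on day 8 have known roles in salicylic acid response and immune signalling. Others tied to defence and the cell surface were not called in limma: AT5G59670 (0.25, adjusted p = 0.593) and AT1G55210 (0.65, adjusted p = 0.283). AT5G03350 rose by 2.55 ± 0.30 (5.86-fold, adjusted p = 0.00168), by 2.1 in the empty vector and 3.0 in 35S:PAP1. AT5G52810 rose by 1.8 ± 0.34 (3.48-fold, adjusted p = 0.00910), by 2.3 and 1.3. Of the 11 uncalled members, the values lay between -0.75 ± 0.55 for AT1G73600 (adjusted p = 0.415) and 0.7 ± 0.31 for AT3G60440 (adjusted p = 0.164).

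Several of these calls rest on single arrays. Without the empty vector day 12 array 3 members were called, AT2G23910, AT3G06035 and AT5G03350. In that fit the adjusted p was 0.101 for both CHIL and AT5G52810, 0.0507 for AT1G06690 and 0.0611 for AT5G12470. Without the empty vector day 8 array CHIL fell by 2.2 (adjusted p = 0.0548), against 4.5 without the 35S:PAP1 day 8 array (adjusted p = 0.00832). In the former fit AT5G52810 rose by 1.61 (adjusted p = 0.106), so neither gene was called there, while NPF3.1 rose by 1.04 (adjusted p = 0.0301). Without the 35S:PAP1 day 12 array CHIL (adjusted p = 0.0760) and AT5G12470 (adjusted p = 0.0574) were uncalled. With days 8 and 12 alone, which leaves 4 arrays, limma called 0 members and 0 probe sets, and 8 members and 6022 probe sets had an unadjusted p under 0.05. Adjusted p-values over all alternatives ranged from 0.000490 to 0.142 for AT2G23910, 0.000862 to 0.147 for AT5G03350 and 0.00480 to 0.216 for CHIL.

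**Figure D4:**
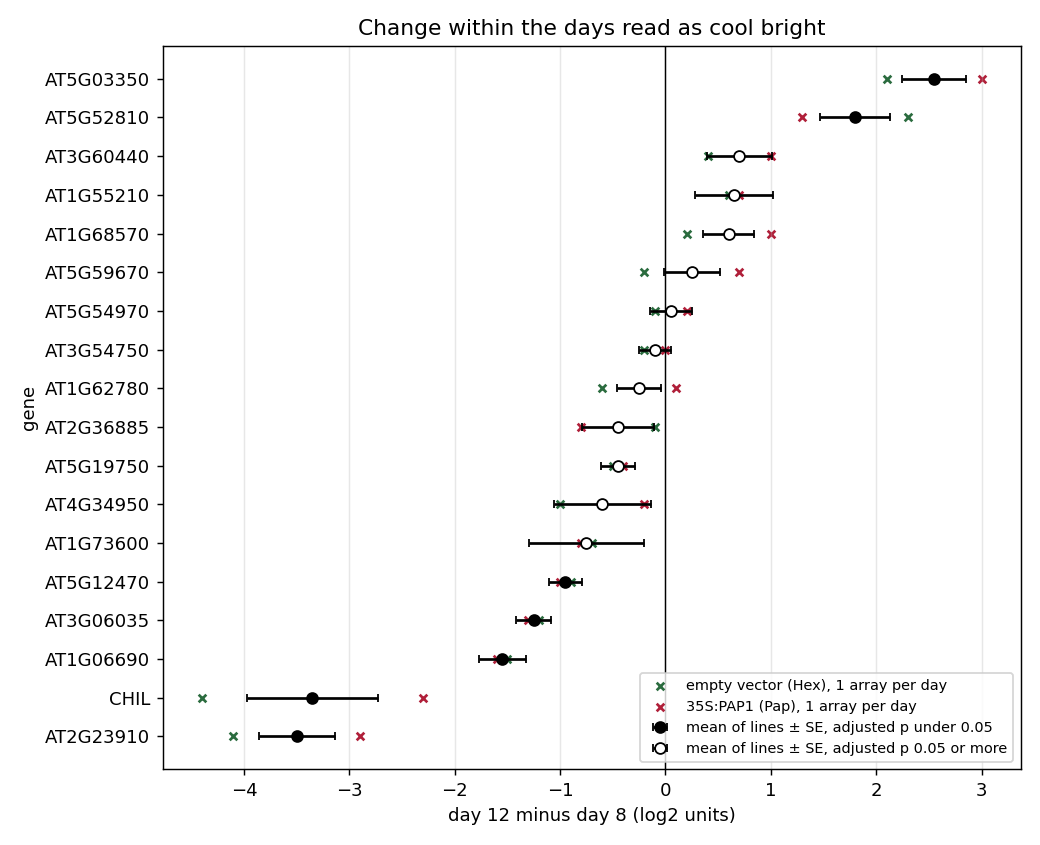
Day 12 minus day 8 in log2 units (horizontal axis) for each gene (vertical axis). Circles with bars are the mean of both lines ± SE, filled where the adjusted p was under 0.05, and crosses are the single lines. AT2G23910 and CHIL lie lowest (-3.5 and -3.35), and AT5G03350 and AT5G52810 highest (2.55 and 1.8).

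Against day 1 the cool bright levels were a partial return for some members and an overshoot for others. Day 8 was at least 1 log2 unit above day 1 in both lines for 4 of 18 members (2.91% of all probe sets), AT2G23910 (3.0 in the empty vector and 2.6 in 35S:PAP1), CHIL (4.2 and 1.5), AT1G06690 (1.4 and 2.3) and AT5G12470 (1.4 and 1.7). Day 12 was so for 1 of 18 (1.19% of all probe sets), AT5G03350 (1.4 and 1.0). At the other end, day 8 was below day 1 by 0.7 and 2.0 for AT5G03350, by 0.6 and 1.0 for AT5G59670 and by 1.0 and 0.5 for AT5G52810. All these days took part in choosing the members, so the values are a description.

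Other genes of the same pathways were read from lists of flavonoid and salicylic acid genes. Of 14 flavonoid genes, 5 had a probe set of their own, and 3 of these were called lower on day 12 than on day 8. Of all probe sets 9.44% were called lower, and 15% of those with a mean of at least 5. The median of the 5 genes was -2.1 (median over all probe sets -0.05). The called genes were CHIL, itself a member, AT1G06000 (-3.25, limma adjusted p = 0.00101) and UGT78D1 (-1.95, adjusted p = 0.00283). AT1G06000 and UGT78D1 are flavonol glycosyltransferases that the rule leaves out by name. AT1G06000 met the limits of the rule and UGT78D1 did not. UGT78D2 (-2.1, adjusted p = 0.0542) and DFR (-0.95, adjusted p = 0.567) were not called. The 35S:PAP1 difference was called for 1 of the 5 (0.0791% of all probe sets), the anthocyanin gene DFR (6.36, adjusted p = 0.0146), and none was called lower. Of 10 salicylic acid genes AT5G03350 alone had a probe set naming it, so that list says nothing more. The other 9 lists hold no member. Of 6 cold response genes with a probe set COR15A (-1.85) was called lower on day 12 than on day 8, and of 3 light signalling genes HYH (-2.15). The single chlorophyll gene, PORB, was called higher (1.3). These 3 genes are named after their values were seen. The 5 genes of the lists for glucosinolates, wax, starch and sugar, and zinc and iron were not called in any test, and those for lipid transfer and DNA replication had no probe set of a single gene.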

How the data were processed

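Leaf RNA of 10 arrays (2 lines on 5 days) was measured on Affymetrix arrays. The authors deposited log2 expression values made with RMA, per the submitters' processing notes, with version and settings unstated there. RMA gives no detection call, and the deposited log2 values carry 1 decimal. Array medians lay between 5.5 and 5.7, and the number of arrays limits the precision, as there are no reads to count. Tests covered 22746 of 22810 probe sets, without the 64 array controls. The probe table leaves 8730 unlisted and gives several genes for 503. All 18 members had an entry in the reference table, found through Entrez identifiers. There were 0 unused columns.

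Linear models in limma 3.58.1 (R 4.3.3), with moderated variances, ran across all probe sets, with Benjamini-Hochberg adjustment and a threshold of 0.05, and tested on simulated data. Line and day were terms (4 residual degrees of freedom). The day 7 departure used the 5 same-day differences (3 residual degrees of freedom). The p-values rest on how the difference between the lines varied from day to day, with 1 array per line and day. That spread may be technical or may hold different responses of the lines to the days, which cannot be told apart. For the members, the choice by limits that both lines had to pass may make that spread smaller, which was not tested. The day pairs the arrays. Over probe sets, the 2 arrays of a day departed together from the means of their lines, with correlations of 0.525, 0.775, 0.488, 0.843 and 0.752 on days 1, 2, 7, 8 and 12.

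The members and the 11 gene lists were chosen with earlier results of these data known. The rule for named genes allows every member, and other genes of a list that holds a member. The 3 genes just outside the limits are named for that position, and HTB2 and COR15A as genes set aside. HYH and PORB, single calls in lists without a member, are named outside the rule. Neither sequences nor a genome were used here. Alternatives were centring each array, leaving out dim probe sets (mean under 5), an intensity trend, leaving out days or arrays, no day block, and other limits for the members.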

Additional observations from a re-analysis of the deposited data

Results flagged for a closer look

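For 2 members the lines moved in opposite directions between days 2 and 7, by at least 0.5 log2 units each way. AT3G60440, of the phosphoglycerate mutase-like family, changed by -0.7 in the empty vector and 0.7 in 35S:PAP1. AT4G34950, of the major facilitator superfamily, changed by -0.7 in the empty vector and 1.4 in 35S:PAP1. Each value rests on 1 array per line and day, and the opposite movement itself was not tested. Day 2, the base of these changes, was chosen to be low in both lines. The related limma test of the day 7 line difference against the other days gave adjusted p = 0.456 for AT3G60440 and 0.314 for AT4G34950.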

How the results depend on the processing

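The line difference called 18 probe sets. It called 28 with dim probe sets left out, 34 with an intensity trend, 8 with no day block and 0 without days 2 and 7 (limma, 1272 at an unadjusted p under 0.05). With single days left out it called 0 (without days 1 or 12, 2053 and 1039 at an unadjusted p under 0.05) to 13 probe sets. Among members it called 0, and 1 (CHIL) with dim probe sets left out, 1 with a trend and 0 to 1 with single days left out. Day 12 minus day 8 called 4586 probe sets and 7 members. Leaving out single arrays gave 1429 to 4723 probe sets and 3 to 8 members, and days 8 and 12 alone gave 0 and 0. Those that leave out arrays of days 1, 2 and 7 were chosen after seeing the data. An array left alone on its day is assumed to vary like the others. The day 7 departure called 0 probe sets, and 1, no member, with dim probe sets left out. The number of members was 6 with a fall limit of 2, 9 with a rise limit of 1.5, and 46 and 68 by the empty vector or 35S:PAP1 alone, the last pair chosen after seeing the data. None of the gene values that were compared changed sign under the alternatives run. These were only values of members with an unadjusted p under 0.05 in the main limma fit of that test. Leaving out dim probe sets or adding an intensity trend cannot change an estimate. Nor can the line difference with no day block. The same holds for day 12 minus day 8 with those days alone, or without an array of day 1, 2 or 7. All those settings could not test the sign. RMA values without detection calls limit what can be said of levels near 3.9.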
